A study of Caenorhabditis elegans with 2 samples.

Results

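Intronic peaks are the summits of SMA-3 chromatin immunoprecipitation that lay inside genes, away from annotated promoters. They were taken from the optimal ce11 list, on chromosomes other than X, where the summit fell within a protein-coding gene but in no coding exon or UTR. It also had to lie outside every window from 1000 bp upstream to 200 bp downstream of a protein-coding transcription start, and more than 100 bp from any tRNA gene. This gave 445 peaks of 4205 in the list (10.6%), or 13.4% of the 3312 on autosomes. Within the list the rule used position only, so sequence was free to vary among the peaks. The list itself equals the 4205 highest of the 30000 pooled regions and came from an irreproducible discovery rate procedure. Signal and replicate ranks could therefore vary only within what the list admits.

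The study was a ChIP-seq of GFP-tagged SMA-3 from whole Caenorhabditis elegans hermaphrodites at the L2 larval stage, in 2 biological replicates of 1 group. The animals were of strain CS152, carrying the allele sma-3(wk30) and the integrated array qcIs[gfp::sma-3+rol-6], and were collected 24 hours after synchronisation as starved L1 larvae following bleaching. Chromatin was sonicated and precipitated with an anti-GFP antibody. Both replicates carried that mutation and the same transgene, so the SMA-3 recovered came from the transgene, whose promoter and expressing cells no label names. The genotype writes the fusion as gfp::sma-3, while a note in the labels places the tag at the C terminus. No untagged precipitation was analysed here, and recovery irrespective of SMA-3 was not tested for any peak described.

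SMA-3 is a receptor-regulated Smad. The ligand DBL-1 acts through the receptors SMA-6 and DAF-4, and SMA-3 then acts in the nucleus, together with SMA-2 and SMA-4, on genes of body size, cuticle and male tail. Smad proteins contact a short GTCT core or GC-rich sequences, and in Drosophila the related Mad protein binds GC-rich elements. Introns of worm genes can hold enhancers and the promoters of shorter transcripts.

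Summit sequences with the Smad core are shown first, from some of the strongest intronic peaks, from 1 of the 5 peaks of the dauer TGF-beta regulator daf-5 and from a weak vhp-1 peak (pooled signal 80.5). They were picked to show the core with and without a shared extension, and their number in each form says nothing of how common it is. All printed sequences are from the RefSeq sequence of the ce11 assembly (WBcel235), read 5′ to 3′ on the strand given, 30 bases each. Capitals mark GTCTG, the Smad core searched here, at the match nearest to the summit. In the first 5 the core is followed by cgtctc, and in the next 2 by cg and other bases. In the last 2 it is not followed by cg.
Y43F8B.2: cgccacaatgatGTCTGcgtctctggtctc
epg-9: gtctctttgcctGTCTGcgtctcctccgta
Y111B2A.12: tggtcactcgatGTCTGcgtctcggtgtca
W06H8.6: ttcaaagttggtGTCTGcgtctccgtctct
daf-5: ggccgtttgactGTCTGcgtctcccaccct
nhr-19: tttcctttagtcGTCTGcgtatgtgtcacc
vhp-1: gtccgtctagacGTCTGcgtattctgagat
pkg-2: caagccattataGTCTGcccgtcccgtcac
dhc-4: aacccatgacatGTCTGctacactccttac
The first lies at chrV:19529391-19529420 on the plus strand, centred 8 bp from its summit. The epg-9 sequence is chrIV:2602163-2602192 and that of Y111B2A.12 is chrIII:12612651-12612680, both on the plus strand. The daf-5 sequence is chrII:14050666-14050695 on the minus strand. Of the 4 daf-5 peaks with GTCTG, this one has cgtctc after the nearest match, another has cg and other bases, and 2 have no cg.

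Other intronic peaks carried GAGA repeats, the palindromic E-box CACGTG or the GC-rich Smad site GGCGC at their summits, and examples follow with those letters in capitals. They are shown because these motifs were at a higher share of summits than of nearby intron, as described further on.
Y43F8B.2: cggtgcgcaatgCACGTGaatcgccgccgc
D2023.3: cagcgtggcgtcCACGTGgatatgataaga
egl-27: cgagacaaacatGAGAGAGAagatgaatga
pqn-41: agagagcacgatGAGAGAGAgagagtgtgc
ell-1: aaacgagagagaGAGAGAGAggcaacgccg
Y62E10A.13: tgaaattgtggaGGCGCccccggggagggc
C08D8.1: tggagtgtcggcGGCGCgtgttggtgtagt
At Y43F8B.2 the E-box window overlaps the GTCTG window shown above, so a Smad core and an E-box lay within 1 summit window. The C08D8.1 summit lay at a snoRNA gene, a class described below.

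The strongest intronic peak was in Y43F8B.2, an uncharacterised gene of chromosome V. Its pooled signal, the authors' value per region, was 1402, and it ranked 3 in the pooled list, 3 in replicate 1 (signal 581) and 3 in replicate 2 (signal 841). Each list has its own signal scale, so replicates are compared by rank. The next was in epg-9, which encodes an autophagy protein related to ATG101, with signal 716 (rank 36 in replicate 1 and 30 in replicate 2). Y111B2A.12 followed at 683 (ranks 32 and 50). A peak in pkg-2, a cGMP-dependent protein kinase gene, had signal 679 (ranks 30 and 61). These 4 peaks were near the top of both replicate lists, each of which holds 30000 regions.

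The 25 strongest intronic peaks that were also among the highest regions of both replicates lay in 22 genes, with pooled signal down to 359. Their ranks went no lower than 387 in replicate 1 and 315 in replicate 2. D2023.3 had signal 669 (ranks 72 and 35). In pqn-41, which encodes a glutamine-rich protein, 3 of these peaks fell in 1 intron, with signals of 655, 554 and 367. Y62E10A.13 had 510 and egl-27, a relative of the MTA proteins of nucleosome remodelling complexes, had 500.

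Several of these peaks were in genes of kinases, transcription factors and chromatin proteins. The peak of mnk-1, a MAP kinase-interacting kinase gene, had signal 449 (ranks 175 and 137). Those of klf-1, a Krüppel-like factor, and nhr-19, a nuclear hormone receptor, had 439 and 435. The peaks of zfp-1, an AF10-related chromatin protein, and vhp-1, a MAP kinase phosphatase, had 417 and 408. Enzyme genes were present too, with 361 at pgph-2 and 359 at the hexokinase gene hxk-1. W06H8.6 (418), T28F4.1 (384) and ppfr-1 (370), a regulatory subunit of protein phosphatase 4, complete the peaks that were not at snoRNA or snRNA genes. A second pkg-2 peak had 360. The remaining 4, in F58G1.7 (488), F01D5.10 (408), dhc-4 (403) and C08D8.1 (372), lay within 100 bp of snoRNA or snRNA genes, which are described below.

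**Figure D1:**
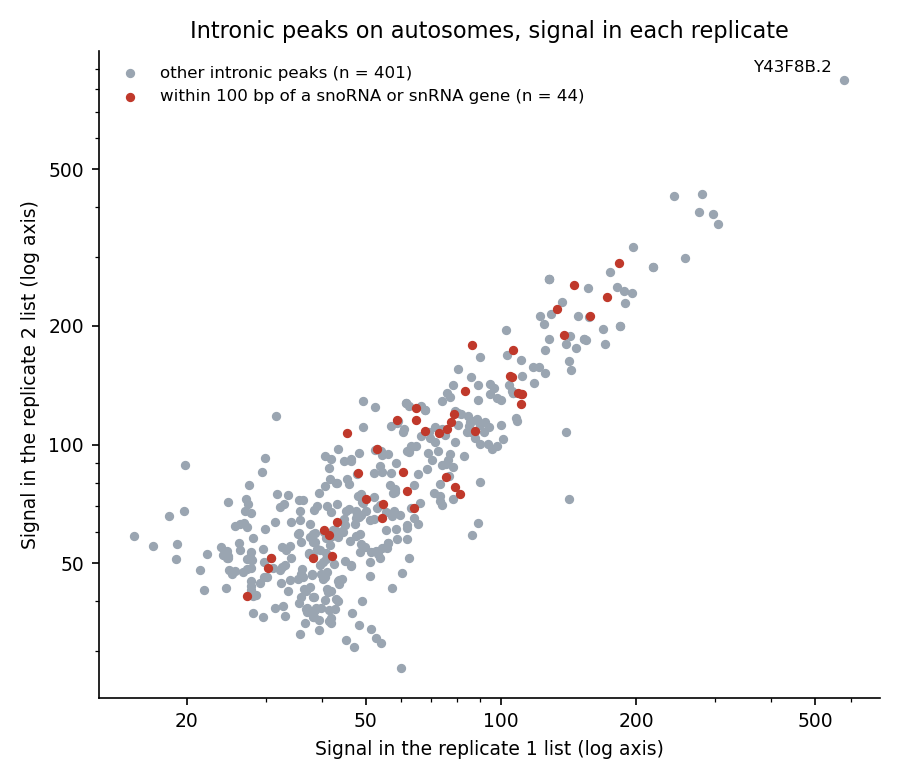
Signal of each of the 445 intronic peaks in the replicate 1 list (horizontal, log axis) and the replicate 2 list (vertical, log axis), in the authors' units. Red points are the 44 peaks within 100 bp of a snoRNA or snRNA gene, and Y43F8B.2 stands above all others in both lists.

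Across all 445 intronic peaks the pooled signal lay between 70.2 and 1402, the median being 116 and the interquartile range 86.6 to 183. The median of all optimal peaks was 121, that of the 1919 autosomal promoter peaks 133, and that of the 723 autosomal peaks outside genes and promoter windows (distal intergenic) 114. Every intronic peak overlapped some region of each replicate's list. That says little of reproducibility, because the optimal list was derived from the same replicates and each replicate list holds 30000 regions. Among the 4205 highest regions of a replicate, 385 were matched in replicate 1, 399 in replicate 2 and 344 in both. The strongest peak not matched in both was in E01G4.3, at rank 2224 of the pooled list.

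Intronic peaks were less often matched in the highest regions of both replicates than promoter peaks were (77.3%, 95% interval 73.1 to 81.1, against 82.8%). By Fisher's exact test the log2 odds ratio was −0.50 (adjusted p = 0.0191). They were also less often among the 1051 highest peaks by signal (24.0% against 30.3%; −0.46, adjusted exact p = 0.0182). Against distal intergenic peaks neither share passed the test (78.8% matched, adjusted exact p = 0.559, and 20.3% among the 1051 highest, adjusted exact p = 0.144). Without replicate 1 the first difference was −0.31 (adjusted exact p = 0.244), and without replicate 2 the second was −0.39 (adjusted exact p = 0.0527), so each lost its call. A peak is a region of a list and not a replicate, so these tests cover counting of regions only.

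Intronic peaks lay in a small share of genes, which their number alone requires, and most of those genes held 1 peak. Whether the peaks clustered beyond what intron length gives was not tested. They lay in 305 of the 15516 autosomal protein-coding genes that had any eligible intron (1.97%), eligible intron meaning bases that meet the position rule. Of these hosts 231 had 1 peak and 74 had 2 or more, and those 74 held 217 of the 445 peaks. Host genes had a median of 3907 eligible bases against 601.5 over all eligible genes. Among genes with at least 5000 eligible bases, 129 of 1052 were hosts (12.3%), and above 10000 eligible bases 21.3% were.

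Each of 3 genes had 7 intronic peaks: pkg-2, ppfr-1 and daf-16. The daf-16 gene encodes the FoxO transcription factor at the end of the insulin pathway. Its 7 summits lay 1080 to 19440 bp from the gene's 5′ end, with pooled signals of 150, 118, 108, 104, 92.2, 79.3 and 78.8. None was among the 1051 highest peaks, the strongest ranking 1516, and 5 of the 7 were matched in the highest regions of both replicates. In replicate 1 their signals were 58.3, 40.5, 31.7, 40.4, 19.7, 29.6 and 35.9, and in replicate 2 they were 90.0, 78.3, 74.9, 59.96, 67.8, 54.4 and 46.9. The summit with the highest signal was the one farthest from the gene's start. No daf-16 promoter window held a peak.

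The pkg-2 peaks had a wider range. Their pooled signals were 679, 360, 307, 277, 200, 86.6 and 76.2, and they lay between 5372 and 12097 bp from the gene's 5′ end, in introns 4 and 5. In replicate 1 they had 304, 137, 147, 111, 94.1, 43.7 and 27.7, and in replicate 2 they had 364, 230, 176, 164, 111, 45.3 and 51.95. The 5 in intron 4 were thus above the 2 in intron 5 in both replicates.

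In ppfr-1 the 7 summits fell in only 5 distinct intervals, between 6108 and 9587 bp from the gene's start, with pooled signals from 76.6 to 370. Summits that share an interval also share 1 region of a replicate list, and their replicate values are then not separate measurements. All 7 were matched in the highest regions of both replicates.

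Of the other hosts with several peaks, Y67D8A.2 had 6 with signals from 86.9 to 195. Those with 5 were vhp-1 (73.3 to 408), let-526 (104 to 339), daf-5 (89.6 to 249), aakg-1 (74.3 to 246) and ell-1 (70.5 to 236). Their products are a MAP kinase phosphatase, an ARID-domain subunit of SWI/SNF complexes, a Ski/Sno-related protein, a gamma subunit of AMP-activated kinase and a relative of the ELL elongation factors. Those with 4 were pqn-41, egl-27, Y48C3A.5, T28B11.1, fkh-7, glr-2, hlh-30, sea-2 and akap-1. Among these, all 4 pqn-41 peaks were at 305 or above, while the strongest akap-1 peak, at 81.7, was below the lower quartile of all intronic peaks.

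**Figure D2:**
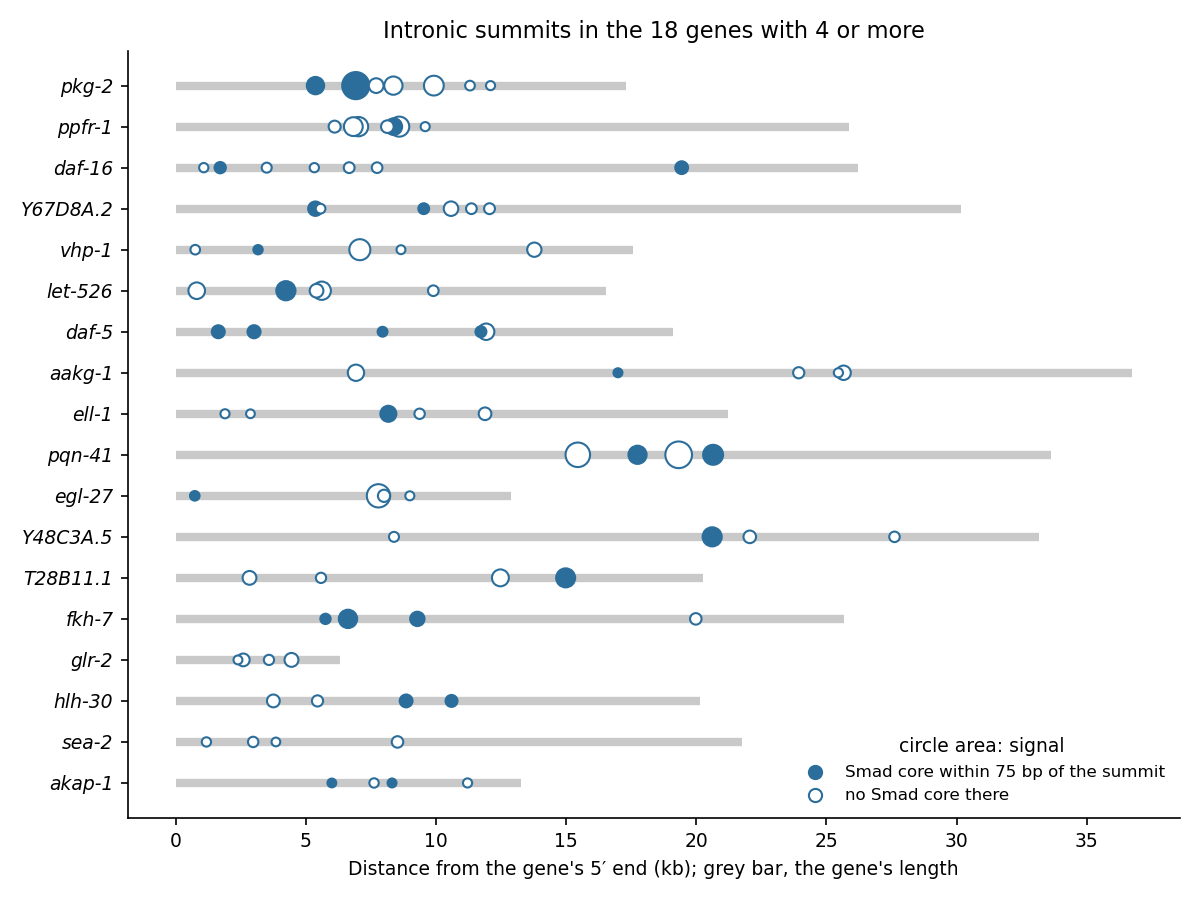
Intronic summits along the 18 genes with 4 or more, by distance from each gene's 5′ end in kb, with the gene's length as a grey bar. Circle area is proportional to pooled signal, and filled circles have the Smad core within 75 bp of the summit, as in all but 1 of the daf-5 summits and 2 of the 7 at daf-16.

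Hosts often had a promoter peak as well. Of the 305 hosts, 37.7% had one, against 2076 of the 15516 eligible genes (13.4%). Among genes with at least 5000 eligible bases, 54 of 129 hosts (41.9%) and 139 of 923 other genes (15.1%) had one. These shares are given as a description, because hosts had more eligible intron than other genes and the shares were not matched for start sites. Of the named hosts, pkg-2, daf-5 and hlh-30 had a promoter peak while daf-16, pqn-41 and lag-1 had none.

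Genes of the dauer TGF-beta pathway, a second TGF-beta branch that controls dauer entry, included 2 hosts among 6 eligible genes, daf-14 and daf-5. The share of hosts over all eligible genes was 1.97%. The daf-14 gene encodes a Smad of that pathway, and DAF-5 is a Ski/Sno-related protein of the same pathway. The strongest daf-14 peak had pooled signal 259 (111 in replicate 1 and 149 in replicate 2) and the other 143 (54.3 and 85.1), both in intron 1. All 5 daf-5 peaks were in intron 1, which is 14446 bp long, with pooled signals of 249, 157, 154, 111 and 89.6. In replicate 1 these had 106, 76.5, 61.7, 106 and 38.2, and in replicate 2 they had 135, 83.3, 96.3, 135 and 59.2. The repeated values belong to 2 summits that overlapped the same replicate region. All 5 were matched in the highest regions of both replicates.

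No gene of the BMP pathway itself was a host, with 14 of its genes eligible and 28.5 kb of eligible intron. Over all eligible genes 1.97% were hosts, so a count of 0 in a list this small is not read as absence. The 7 peaks of the dauer list lay in 24.5 kb, or 28.6 per 100 kb, against 1.96 per 100 kb over all eligible genes. Other short lists had high densities too, such as 25.1 for ribosomal proteins, from 1 peak, and 13.3 for hlh genes, from the 4 peaks of 1 gene. The BMP list covers the ligand, receptors, Smads and cofactors, less its members on X.

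Insulin and TOR signalling had 3 hosts among 14 eligible genes, with 12 peaks in 94.2 kb (12.7 per 100 kb). Over all eligible genes 1.97% were hosts, with 1.96 peaks per 100 kb. Beside daf-16 the hosts of the list were hlh-30, the TFEB homologue that controls autophagy and lysosome genes, and let-363, the TOR kinase. Of the 12 peaks, 7 were in daf-16 and 4 in hlh-30, and 5 of the 14 genes had at least 5000 eligible bases. The 4 hlh-30 peaks had pooled signals of 152, 151.2, 132 and 115.4. Their replicate 1 signals were 54.4, 78.4, 44.8 and 47.6, and those of replicate 2 were 94.2, 72.9, 90.6 and 68.01. The single let-363 peak had 111. hlh-30 was also the only host among 19 eligible hlh genes.

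Among developmental regulators, 3 of 17 eligible heterochronic and epidermal genes were hosts: lin-42, the worm relative of Period, with peaks of 277 and 163, nhr-23 (145), which is needed for moulting, and myrf-1 (137). The EGF, Ras and Notch list had 3 hosts of 18, namely lag-1, the CSL transcription factor of Notch signalling (322 and 202), the ETS factor lin-1 (205) and the MAP kinase mpk-1 (124). Wnt genes gave 2 of 25, the Frizzled receptor lin-17 (93.2) and the Nemo-like kinase lit-1 (73.1). Of 6 Hox genes only nob-1 (98.5) was a host. Of 45 eligible ceh homeobox genes, 28 chromatin cofactor genes and 99 neuropeptide and insulin-like genes none was. Over all eligible genes only 1.97% were hosts, so a count of 0 in lists of this size is not read as absence. Their median eligible bases were 900, 2012 and 372 in that order, against 601.5 over all eligible genes. The chromatin list does not hold let-526 or egl-27, both hosts with products in remodelling complexes.

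Nuclear hormone receptors had 9 hosts among 242 eligible genes (3.72%, against 1.97% of all eligible genes), led by nhr-19 (435), nhr-31 (331) and nhr-46 (217). The nhr-19 gene had 3 peaks and nhr-31 had 2. Forkhead, T-box and Sox genes had 1 host of 20, fkh-7, with 4 peaks from 97.9 to 309. All but nhr-19 among the 9 receptor hosts also had a promoter peak, against 37.7% of all 305 hosts. This difference was not tested.

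The adhesion and muscle lists, which hold long genes, had hosts at a share above the 1.97% of all eligible genes, but no higher density of peaks. Their median eligible bases were 5536 and 2511.5, against 601.5 over all eligible genes. Cell adhesion and axon guidance genes had 4 of 44 (9.09%), among them unc-52 (139), the perlecan gene, sax-7 (96.6), an L1CAM relative, and the spectraplakin gene vab-10 (3 peaks, 81.4 to 85.4). The muscle structure list had 3 of 32 (9.38%), mup-4 (284), unc-52, which is on both lists, and the dystrophin gene dys-1 (83.6). A place on that list does not say in which tissue a product such as MUP-4 acts. Per 100 kb of eligible intron these lists had 1.45 and 1.96 peaks, against 1.96 over all eligible genes. Synaptic and ion channel genes had 2 of 46 (4.35%), unc-43 (202), which encodes CaM kinase II, and the glutamate receptor gene glr-2 (178). Cuticle collagens, known targets of the pathway, had 2 of 140 (1.43%), col-72 (96.8) and col-159 (80.7). Collagen genes had a median of 63.5 eligible bases, beside a median peak width of 400 bp.

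Lipid metabolism had 1 host of 41, pmt-1 (120), ribosomal proteins 1 of 39, rpl-3 (82.2), and hedgehog-related genes 2 of 68, ptr-23 (90.4) and ptr-25 (73.1). The chemoreceptor list had 4 hosts of 1290 (0.310%), led by sra-10 at 99.7, with sre-45 (76.03) lower. It also counts srap-1 (82.4), and whether that gene encodes a chemoreceptor was not checked. The marker lists of hypodermis, intestine, body muscle, neurons, pharynx and germline held no host. Read against 1.97% of all eligible genes, the list counts are small and are given without a test, and the median eligible length differed between lists from 52 bp for ribosomal proteins to 5536 bp for adhesion genes.

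Most intronic peaks lay in long introns. The median intron with a summit was 3270 bp long, and 62.7% of peaks (95% interval 58.0 to 67.2) were in introns of at least 2000 bp, against 26.01% of the lowest-ranked intronic regions (Fisher's exact test, 2.25 on the log2 scale, adjusted p = 4.08e-42). The latter are the 1368 regions among the 6000 lowest of the pooled list that met the same position rule, and none of them is in the optimal list. Introns of that length make up 27.5% of eligible bases. Density rose from 2.97 peaks per Mb of eligible intron in introns under 200 bp to 33.98 in those of 2000 to 5000 bp and 58.5 in those of 5000 bp or more, although introns of 200 to 500 bp had 14.5 and those of 500 to 1000 bp had 8.39. The pqn-41 peaks lay in an intron of 7776 bp and the lin-1 peak in one of 20948 bp, the longest with a peak.

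**Figure D3:**
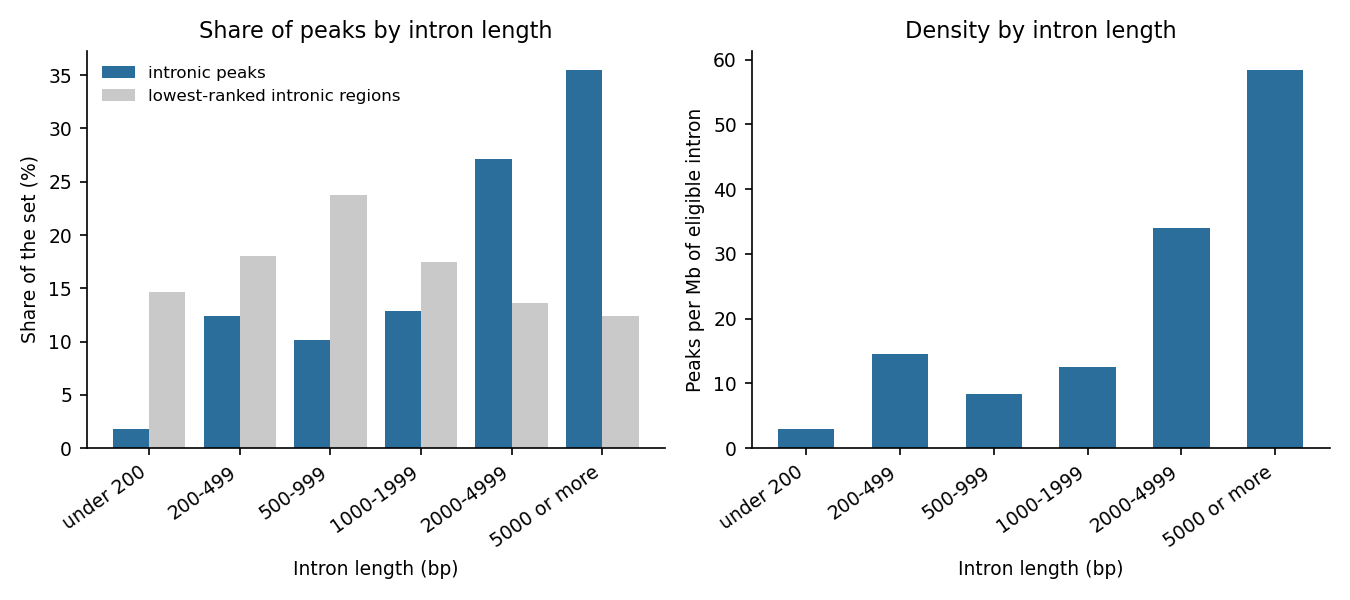
Left, share of the 442 intronic peaks in annotated introns (blue) and of the lowest-ranked intronic regions (grey) by intron length in bp. Right, intronic peaks per Mb of eligible intron in the same length classes, highest at 58.5 in introns of 5000 bp or more.

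The first intron of at least 1 transcript held 207 of the 442 peaks in annotated introns (46.8%), against 29.2% of the lowest-ranked intronic regions (1.096, adjusted exact p = 4.27e-11) and 28.1% of eligible bases. Long introns are often first introns, and the shares within length classes are therefore given too, without a test. In introns of 2000 bp or more, 56.7% of peaks, 45.5% of lowest-ranked regions and 45.9% of eligible bases were in first introns. In shorter introns the shares were 30.3%, 23.4% and 21.3%. The daf-5, daf-14, lag-1, ell-1 and pqn-41 peaks were in first introns, while those of daf-16, Y67D8A.2 and pkg-2 were not.

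Intronic peaks lay a median of 3743 bp from the 5′ end of their gene, and 255 (57.3%) were upstream of another start site of the same gene. The latter group includes the top peaks of Y43F8B.2, epg-9, pkg-2 and egl-27, while those of D2023.3, klf-1 and nhr-19 were downstream of every start. The nearest start belonged to the host for 381 peaks (85.6%), and 37 peaks were over 5000 bp from any protein-coding start. These shares, 57.3% among them, are given without those of the lowest-ranked intronic regions or of eligible bases. Whether they are particular to the peaks was not tested. In 3 cases the summit was in no annotated intron, as at rpl-3, and in 3 it was in introns of more than 1 gene.

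Chromosome arms, the outer 25% of each autosome at either end, held 35.5% of intronic peaks against 54.4% of the lowest-ranked intronic regions (−1.11, adjusted exact p = 1.24e-11). Eligible intron was 58.2% in arms. Summits were on a soft-masked base, a repeat or low-complexity base in the RefSeq sequence, in 14.8% of peaks against 49.3% (−2.47, adjusted exact p = 1.79e-40), and 54.6% of eligible bases were masked. By chromosome, density was highest on II, at 26.6 peaks per Mb (95% Poisson interval 21.7 to 32.4), and lowest on V, at 14.5 (11.3 to 18.3). Chromosomes III, IV and I had 23.02, 19.2 and 16.6, and the intervals of II, III and IV overlapped.

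Small nuclear and nucleolar RNA genes, which sit in introns of many worm genes, lay beside a subset of the peaks. Within 100 bp of a snoRNA gene were 32 intronic peaks (7.19%) against 0.219% of lowest-ranked intronic regions (4.94, Fisher's exact test, adjusted p = 3.47e-16). Near snRNA genes were 12 (2.70% against 0.0731%; 4.72, adjusted exact p = 1.30e-06), and near genes annotated only as ncRNA 53 (11.9% against 1.97%; 2.73, adjusted exact p = 3.38e-15). The other 6 classes tested did not pass.

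The strongest of these peaks was in F58G1.7, at 488 (183 in replicate 1 and 289 in replicate 2), beside an snRNA gene. F01D5.10 (172 and 236), C08D8.1 (158 and 212), rol-3 (133 and 221) and pxn-1 (138 and 189) had snoRNA genes at their summits. In dhc-4 the neighbour was a copy of the snRNA gene annotated as R07E5.16, a name carried by several loci, and 3 peaks lay beside such copies. The glutamate receptor gene glr-2 had 3 of its 4 peaks beside sls-2 genes, which encode the SL2 leader RNA used in trans-splicing, with signals of 178, 150 and 96.2. Copies of such genes are alike in sequence, and how reads were divided among them is stated in no source used here.

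The 44 peaks near snoRNA or snRNA genes had a median signal of 178 against 113 for the other 401, and 20 of them were among the 1051 highest peaks. Their introns were short, 27 of the 44 being under 500 bp, and only 7 were in first introns. Peaks near tRNA genes were outside the rule and are not counted here.

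The Smad core was more frequent at summits than in the intron around them. GTCTG was in 29.5% of summit windows, which reach 75 bp to each side of the summit (95% interval 24.6 to 34.7) and in 11.6% (8.39 to 15.5) of windows of the same width centred 600 bp away in intron outside promoter windows (exact McNemar test, 1.63 for the log2 ratio of pairs with the motif in 1 window only, adjusted p = 1.78e-07). The test used 336 pairs, since 109 peaks had no free intronic window at that distance. All motifs were searched on both strands. CAGACA, a longer Smad element whose every match also holds GTCTG, was in 18.5% against 5.65% (1.92, adjusted exact p = 1.74e-06).

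GC-rich motifs were higher too. GGCGC was in 17.6% of summit windows against 5.65% (1.84, adjusted exact p = 5.62e-06) and the Mad site GCCGNCGC, which can overlap it, in 4.46% against 0.298% (3.37, adjusted exact p = 0.00147). The GC box GGGCGG was in 8.63% against 2.68% (1.75, adjusted exact p = 0.00290). The summit windows were 43.9% G and C and the control windows 34.8%, and the part of base composition in the motif results was not tested. Y62E10A.13, klf-1 and C08D8.1 were among the strongest peaks with GGCGC, the last with a snoRNA gene at its summit. GGCGC was in 17 of the 44 peaks near snoRNA or snRNA genes and in 91 of all 445.

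The GAGA repeat GAGAGAGA had the highest log2 ratio of the 8 motifs that passed, with 15.8% against 0.893% (4.39, adjusted exact p = 2.80e-12), with examples at egl-27, pqn-41 and klf-1. In worms the zinc-finger protein EOR-1 binds GAGA sequence. The E-box CACGTG, which HLH-30 and other bHLH proteins bind, was in 14.6% against 2.68% (2.38, adjusted exact p = 5.08e-07). The GATA site TGATAA was in 23.5% against 14.9% (0.78, adjusted exact p = 0.0150). The Mad site, the GC box and the GATA site each lost the call in 2 of 11 other settings, and the remaining 5 motifs kept it in all 11.

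The other 9 motifs did not pass. They were GTCTAGAC, a Smad palindrome (0.298% against 0.893%), the Mad-Schnurri composite (0.595% against 0%), CAGCTG (4.17% against 3.87%), the AP-1 site TGANTCA with C or G at the N (3.87% against 1.49%), AGGTCA (5.06% against 6.85%), a BLMP-1-like site (4.76% against 2.08%), TGTTTAC (4.46% against 3.57%), TCACACCT (0% against 0.298%) and TGTGGTTT (0.298% against 1.49%). The composite pairs a GC-rich Smad site with GTCT at a fixed spacing of 5 bp, and it was in 2 of the 445 summit windows. A motif match is a description of sequence, and its absence says only that the letters are not in the window.

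**Figure D4:**
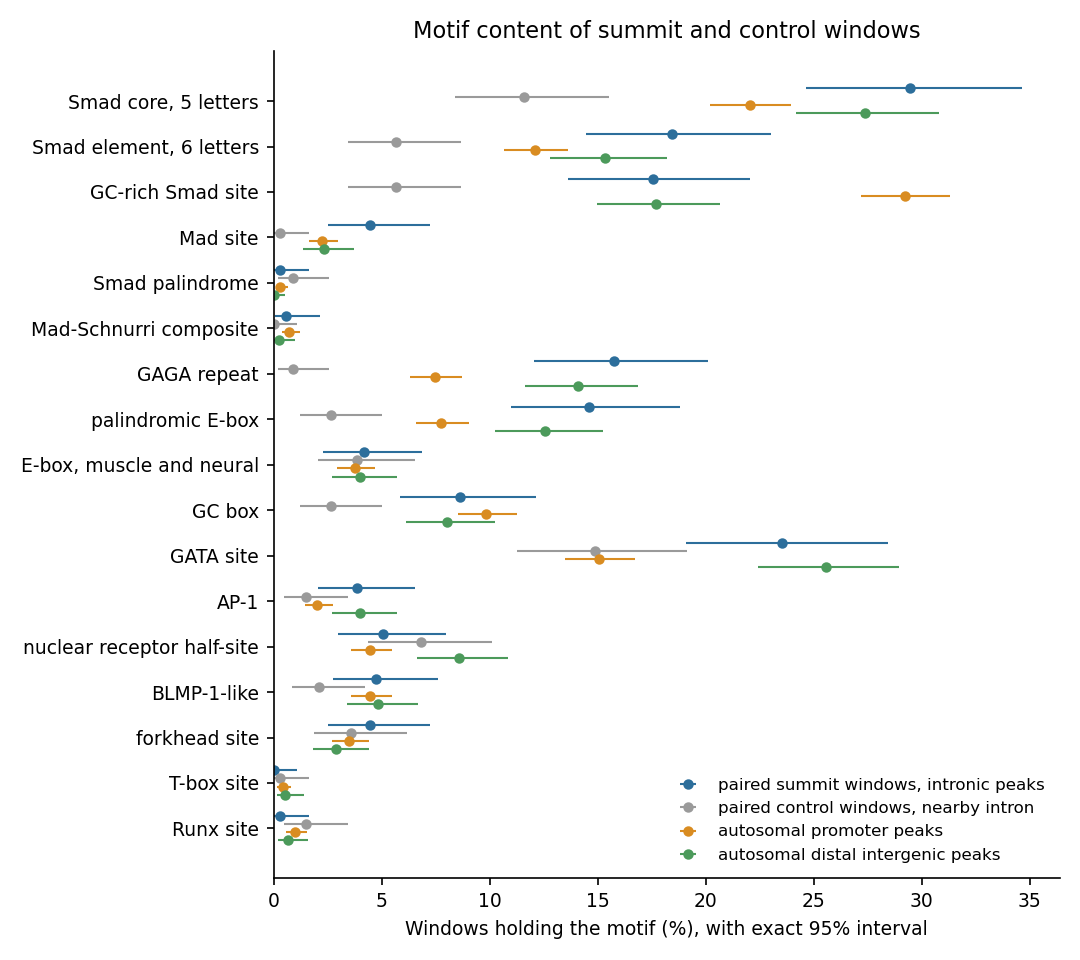
Share of windows, 75 bp to each side of their centre, with each of the 17 motifs (%), with exact 95% intervals, in paired summit windows of intronic peaks (blue), paired control windows in nearby intron (grey), autosomal promoter peaks (orange) and autosomal distal intergenic peaks (green). The 5-letter Smad core stands at 29.5% in summit windows and 11.6% in control windows, and the GAGA repeat at 15.8% and 0.893%.

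Matches of the Smad core and the GAGA repeat were most frequent in the bin just before the summit, while those of the GATA site were not highest there. In 50 bp bins over 500 bp to each side, GTCTG was in 56 peaks in the bin just before the summit and 43 in the bin just after. Before and after are not read as upstream and downstream of a gene, and their difference was not tested. GTCTG was in 24 and 31 in the outermost bins, and in up to 36 in the bins over 100 bp away. TGATAA was in 43 and 35 peaks in the bins beside the summit and in 48 in the bin from 100 to 150 bp. GAGAGAGA was in 33 peaks in the bin before the summit and in 5 in the outermost bin. CACGTG had 22 in that central bin. The pkg-2, pqn-41 and egl-27 matches printed above lie within 70 bp of their summits.

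**Figure D5:**
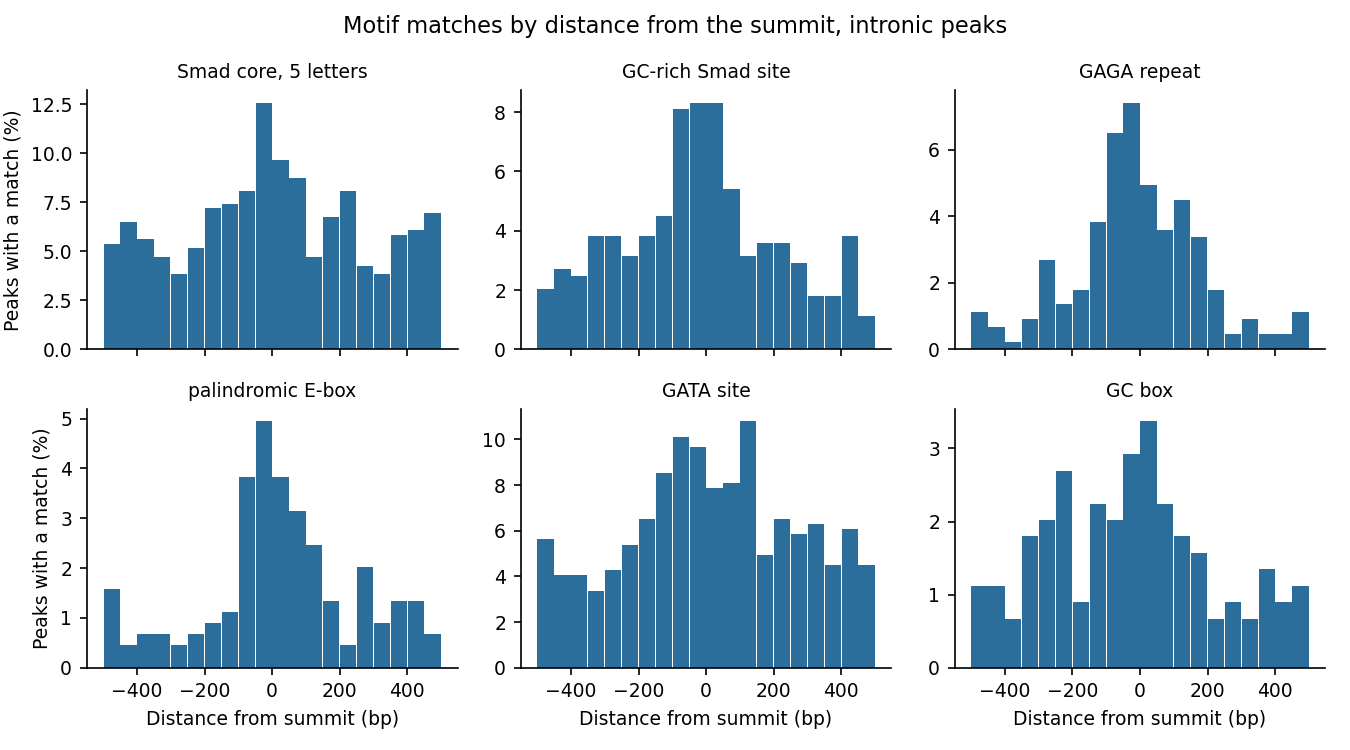
Share of the 445 intronic peaks with a match (%) in each 50 bp bin, by distance from the summit in bp, for 6 motifs. The 5-letter Smad core is highest in the bin just before the summit, with 56 peaks, and the GAGA repeat has 33 there. Before the summit is not read as upstream of a gene.

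The longer form seen at Y43F8B.2, epg-9, Y111B2A.12, W06H8.6 and daf-5 was counted after those sequences had been seen, and it has no test. GTCTG followed by CG was in 8.63% of paired summit windows and in 0.298% of paired control windows. GTCTG never followed by CG was in 20.5% and 11.01%. Of GTCTG matches with 6 further bases in the window, 26.3% in summit windows and 2.13% in control windows were followed by CG, and 20 of 114 and 0 of 47 by CGTCTC. The strongest nhr-19 peak and the vhp-1 peak of signal 80.5 had the CG but not the whole form, and the strongest vhp-1 peak, at 408, had no GTCTG.

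The same form was in other peaks. GTCTG followed by CG was in 7.87% of all 445 intronic peaks, 6.25% of autosomal promoter peaks, 7.61% of distal intergenic peaks and 1.17% of the lowest-ranked intronic regions. Among intronic peaks, it was in 14.02% of the 107 among the highest 1051 of the list and in 5.92% of the other 338. GTCTG as such was in 37.4% and 24.9% of these groups, GGCGC in 29.9% and 17.5%, and CACGTG in 20.6% and 10.4%, while TGATAA was in 15.9% and 25.1%. These shares by signal are descriptions. Of the 107 peaks, 20 lay near snoRNA or snRNA genes, as did 44 of all 445. Among those 44, GTCTG was in 12, GGCGC in 17, CACGTG in 3 and TGATAA in 1. The part of such peaks in the shares by signal was not tested. Of the 25 strongest peaks named above, 11 had GTCTG, 7 had CACGTG, 6 had GGCGC and 4 had GAGAGAGA.

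Compared with promoter peaks, intronic peaks had GAGA repeats more often (14.2% against 7.45%; Fisher's exact test, 1.04 on the log2 scale, adjusted p = 0.000753). They also had CACGTG (12.8% against 7.76%; 0.81, adjusted exact p = 0.00901) and TGATAA (22.9% against 15.1%; 0.75, adjusted exact p = 0.00161) more often. GGCGC was less frequent in intronic than in promoter peaks (20.4% against 29.2%; −0.68, adjusted exact p = 0.00181). GTCTG, at 27.9% against 22.04%, did not pass (0.45, adjusted exact p = 0.0592), but it passed in 4 of 10 other settings, with adjusted exact p = 0.0123 in the upper part of the list by signal. With a wider promoter window, from 2000 bp upstream to 500 bp downstream, none of the 4 differences passed. In the upper part of the list those for GAGAGAGA, TGATAA and GGCGC lost the call (adjusted exact p = 0.217 for each), and that for CACGTG lost it in windows 50 bp to each side (adjusted exact p = 0.349). GC content was close in all sets, at 43.99% in intronic, 42.8% in promoter and 42.6% in distal intergenic summit windows.

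Against distal intergenic peaks none of the 17 motifs passed Fisher's exact test, and none had an unadjusted p under 0.05. GTCTG was in 27.9% of intronic and 27.4% of distal intergenic windows, GAGAGAGA in 14.2% and 14.1%, and CACGTG in 12.8% and 12.6%. In 117 of the 445 intronic peaks none of 6 motifs, namely the Smad core, the GC-rich Smad site, the GAGA repeat, the E-box, the GATA site and the GC box, was within 75 bp of the summit. GTCTG or GGCGC was there in 187 (42.02%) and both in 28.

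Peaks near the edge of the promoter window were few, with median signals below the 116 of all intronic peaks. The 15 intronic peaks within 50 bp of a window had a median of 102, and the 10 intronic summits just inside a window, which the rule left out, had 87.2. In all, 715 autosomal summits away from tRNA genes were in intronic sequence, and 270 of them were in promoter windows.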

How the data were processed

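SMA-3 ChIP-seq of 2 biological replicates of 1 group was analysed. Per the listing deposited with each sample, the authors called regions in each replicate and in both pooled, against a control shared by the replicates, and derived the optimal list by an irreproducible discovery rate procedure. How reads were aligned and regions called, with what settings and depth, is stated in no source used here. The deposited lists give a signal per region, the authors' value with unknown scaling, used only to describe and rank regions within 1 list. The optimal list equals the 4205 highest of the 30000 pooled regions. Depth is unknown, so intervals cover counting of regions only. Regions are not replicates, and nothing in the labels says how the replicate cultures were separated. 0 value columns were left unmapped.

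The ce11 lists were placed on Ensembl release 115 genes (WBcel235; 29314 starts of 19973 protein-coding genes) and the RefSeq sequence of that assembly, whose chromosome lengths hold every region. The ce10 lists were not used. Shares were compared with two-sided Fisher's exact tests, with 0.5 added to each cell for odds ratios, adjusted by Benjamini and Hochberg's method over 2 comparisons, over 13 results against the lowest-ranked regions (9 classes for the non-coding genes), or over 34 motif comparisons with other peaks. The 17 motifs were also compared with nearby intron by a two-sided exact McNemar test. The threshold was an adjusted p of 0.05, and intervals are exact (Clopper-Pearson, or Poisson for densities) at 95%. A match between lists needed 1 bp of overlap. The 27 gene lists were only counted, and 6 of their symbols are not in the annotation.

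Named genes are the hosts of the 25 highest-signal peaks matched in both replicates, hosts of 4 or more peaks, up to 3 hosts per list with the highest signal, and any BMP host. E01G4.3, rol-3 and pxn-1, and vhp-1 and daf-5 as sequence examples, were picked after their values were seen. Members and lists were chosen with earlier results of these data known. Alternatives changed the peak list, promoter window, peak position, repeated intervals, replicates, overlap, lowest-ranked regions, intron and non-coding definitions, window width and control window. The code was tested on simulated windows and shares. Python 3.11.15 with numpy 2.4.6, pandas 2.3.3, scipy 1.17.1 and matplotlib 3.10.9 was used. Some summit sequences are not reported here.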

Additional observations from a re-analysis of the deposited data

How the results depend on the processing

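Of 303 recomputed values, 261 kept their direction and side of the threshold (counts, within 1.5 times). The results for first introns, long introns, arms, masked bases, snoRNA, snRNA and ncRNA genes, and the summit motifs of both Smad elements, the GC-rich Smad site, the GAGA repeat and the E-box, kept both under every alternative run for them. The comparisons of rank with other peaks did not. With the upper part of the list by signal, 207 peaks in 161 genes remained, 5 motifs passed at summits and 2 against promoter peaks. The log2 odds ratio for a match in both replicates was then 0.44 against promoter and 2.81 against distal intergenic peaks, with nearly all peaks matched, and that for the highest peaks was −0.37 (adjusted exact p = 0.340) and −0.017. With promoter windows of 2000 bp upstream to 500 bp downstream these ratios against promoter peaks were −0.29 (adjusted exact p = 0.379) and −0.29 (adjusted exact p = 0.160), and 0 motifs passed against them. Reciprocal overlap of 50% gave −0.13 (adjusted exact p = 0.670) for the match. Leaving out either replicate gave −0.53 to −0.31 for the match against promoter peaks, 0.10 to 0.13 against distal intergenic peaks, and −0.48 to −0.39 for the highest peaks against promoter peaks. A further 2 alternatives were chosen after seeing the data. A longer list, with as many pooled regions as the optimal ce10 list holds, gave 0.028 for the match and 0.39 (adjusted exact p = 0.0358) for the highest peaks, both against distal intergenic peaks, and without peaks near snoRNA, snRNA or ncRNA genes 8 motifs passed against promoter peaks. For these changes the cause was not tested. No paired analysis was possible because there is 1 group. The unknown read depth limits what an unmatched peak can show.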
